A study of Mus musculus with 9 samples.

Results

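The genes described here are the mouse RNA-binding proteins named as serine/arginine-rich splicing factors (Srsf followed by a number), heterogeneous nuclear ribonucleoproteins (Hnrnp followed by a letter) and RNA-binding-motif proteins (Rbm followed by a number, and the Rbmx, Rbmxl and Rbms genes). They were taken by symbol, on chromosomes 1 to 19 or X, and the rule used no measured value. It found 77 of the 39336 features in the deposited mRNA table: 11 SR, 20 hnRNP, 37 numbered RBM, 4 RBMX and 3 RBMS genes, and 2 antisense RNAs named after an Rbm gene. Before the exclusions 80 symbols matched; 2 were marked as pseudogenes and 1 lies on the Y chromosome. The libraries came from male germ cells of adult mice on a normal diet, with 3 libraries each of spermatogonia (types A and B), pachytene spermatocytes and round spermatids. Strain, method of cell isolation and any genetic change are not given in the labels. Each library was made from 1 µg of total testis germ cell RNA with a strand-specific Illumina TruSeq kit and read as 100 bp pairs. The series calls the 3 libraries of a stage replicates without naming separate animals, so the p-values below measure the spread between these samples, which may be technical.

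Spermatogonia divide by mitosis, pachytene spermatocytes are in the long prophase of meiosis, and round spermatids are haploid and later reshape into sperm. SR proteins bind exons through RNA recognition motifs and recruit the splicing machinery through a serine- and arginine-rich tail, which SRPK and CLK kinases phosphorylate. The hnRNPs coat nascent RNA and often oppose SR proteins at an exon, whereas RBM proteins are a mixed set held together by the RNA recognition motif in their names. The testis is known for a very high rate of alternative splicing, and several of these genes are needed for male fertility in mice. In pachytene cells the X chromosome is transcriptionally silenced as part of meiosis, which bears on the members that lie there.

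Levels are the authors' FPKM values, which scale the fragments of a gene by its transcript length and by the library's total. The low FPKM values move in steps whose size puts the depth at 17 to 58.9 M fragments per library, an estimate that depends on that scaling and not a stated depth. Fixed markers of each stage had their greatest sums in the stage they are named for. The 12 spermatogonial markers summed to 380.6 to 492.0 FPKM in spermatogonia, 48.32 to 51.36 FPKM in pachytene cells and 103.0 to 107.8 FPKM in round spermatids, although Gfra1 reached 5.86 to 6.10 FPKM in round spermatids beside 4.43 to 6.03 FPKM in spermatogonia. The 12 pachytene markers summed to 129.9 to 151.1 FPKM, 4103 to 4291 FPKM and 2114 to 2289 FPKM in the same order, and 3 of them, Adam3, Ccna1 and Tbpl1, were higher in every round spermatid library than in any pachytene library. Sycp1 and Ovol2 overlapped between these stages. Most of the difference between the 2 sums came from Hist1h1t, at 1900 to 2059 FPKM in pachytene cells and 167.5 to 178.4 FPKM in round spermatids. The 12 round spermatid markers summed to 2.89 to 3.42 FPKM, 1496 to 1689 FPKM and 16150 to 16580 FPKM. A list of 14 Sertoli cell markers, none of them at 0 in a stage, summed to 1342 to 1586 FPKM in spermatogonia, 292.4 to 304.2 FPKM in pachytene libraries and 79.8 to 82.8 FPKM in round spermatids. Leydig cell markers (9 genes) summed to 60.25 to 70.88 FPKM, 93.99 to 102.7 FPKM and 20.76 to 29.57 FPKM in the stages in order, and macrophage markers (10 of 11 in the table) to 9.953 to 69.67 FPKM, 8.296 to 10.16 FPKM and 36.69 to 39.91 FPKM. Endothelial markers (8 genes) summed to 35.44 to 81.75 FPKM, 5.958 to 7.857 FPKM and 12.3 to 15.1 FPKM, and erythroid markers (7 genes) to 114.0 to 317.2 FPKM, 5.513 to 7.186 FPKM with 1 gene at 0, and 2.731 to 3.935 FPKM with 2 at 0. In these bulk samples fewer cells of a type and less RNA per cell cannot be told apart. One library, spermatogonia replicate 3, held heart muscle transcripts, described with Rbm20 and Rbm24 below. That library also gave the upper end of the macrophage, endothelial and erythroid sums in spermatogonia, at 69.67, 81.75 and 317.2 FPKM.

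Most of these genes were expressed throughout. Of the 75 protein-coding members, 67 had a mean of at least 1 FPKM in all 3 stages and 60 had at least 5 FPKM. The highest and lowest stage means differed by less than 2-fold in 22 of them and by more than 5-fold in 16. Summed per class, the SR genes reached 889.6 ± 51.1 FPKM in spermatogonia, 1135 ± 4.54 FPKM in pachytene cells and 600.9 ± 15.8 FPKM in round spermatids (SD, n = 3 each, as for every ± here). The hnRNP sum was 1748 ± 110 FPKM, 2285 ± 28.4 FPKM and 1532 ± 45.4 FPKM in the same stages. The SR and hnRNP sums were thus greatest in pachytene cells, and their libraries did not overlap between stages. The numbered RBM genes summed to 914.7 ± 39.6 FPKM, 968.9 ± 25.4 FPKM and 965.7 ± 32.5 FPKM, with overlapping libraries.

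Stage differences were tested with limma on log2(FPKM + 0.1), with Benjamini-Hochberg adjustment over the 17987 features that reached 0.5 FPKM in at least 3 libraries. A gene is said to rise or fall only at an adjusted p under 0.05 and a change of at least 2-fold. Of the 77 members 76 were tested, all but Rbm24. Rbm20, Rbm41 and Rbms3 passed the filter on their values in no more than 1 stage. Rbm41 and Rbms3 passed it through spermatogonia alone and so had to be higher there. Counted without them, a choice made after seeing the data, 11 members fell in pachytene over spermatogonia, 15 were lower in round spermatids than in spermatogonia, and 6 were highest in spermatogonia, where 13, 17 and 8 are counted below. In pachytene cells 33 of the 76 (43.4%) passed against spermatogonia, where 67.6% of all features did. Of these 20 rose and 13 fell, 26.3% and 17.1% of members, where 36.6% of all features rose and 31% fell. In round spermatids 31 members passed against pachytene cells, 40.8%, which is also the share of all features (40.8%). Here 12 rose and 19 fell, 15.8% and 25% of members, where 27.3% of all features rose and 13.4% fell. Set against spermatogonia, round spermatids had 32 members that passed, 42.1% where 68.6% of all features did, with 15 higher and 17 lower, 19.7% and 22.4%, where the shares of all features were 38.5% and 30.1%. The members' median log2 fold change was 0.20 in pachytene over spermatogonia (0.26 over all features), -0.50 in round spermatids over pachytene (0.13) and -0.35 in round spermatids over spermatogonia (0.21). Over protein-coding features with a highest stage mean of at least 5 FPKM these medians were 0.531, -0.032 and 0.333. Scaling the libraries to equal medians lowered all values of round spermatids over pachytene, with an all-feature median of -0.23, and then 31 members fell and 9 rose, where 22.9% of all features fell and 22.2% rose. Against spermatogonia, with that scaling, 26 fell and 13 rose, where 34.4% of all features fell and 35.6% rose. In every call the libraries of the compared stages did not overlap, which the rule for a call makes likely and which adds no support. Members that were not called, such as Srsf5, also had stages without overlap, and the share over all features was not counted. Repeating the test under 16 other settings kept, in every setting that tested the member, 29 of the 33 calls in pachytene over spermatogonia (not Rbm3os, Rbm6, Rbm18 and Srsf4), 22 of the 31 in round spermatids over pachytene (not Hnrnph3, Rbm3os, Rbm18, Rbm22, Rbm45, Rbmx, Rbmxl1, Srsf1 and Srsf12) and 28 of the 32 in round spermatids over spermatogonia (not Hnrnpll, Rbm12b2, Rbm26 and Srsf10). Rbm41 and Rbms3 were not tested when any spermatogonia library was left out, so the calls tested and kept under all 16 were 27 of 33 and 26 of 32 against spermatogonia. In the plot of fold changes, each class is a column and each member a point.

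**Figure D1:**
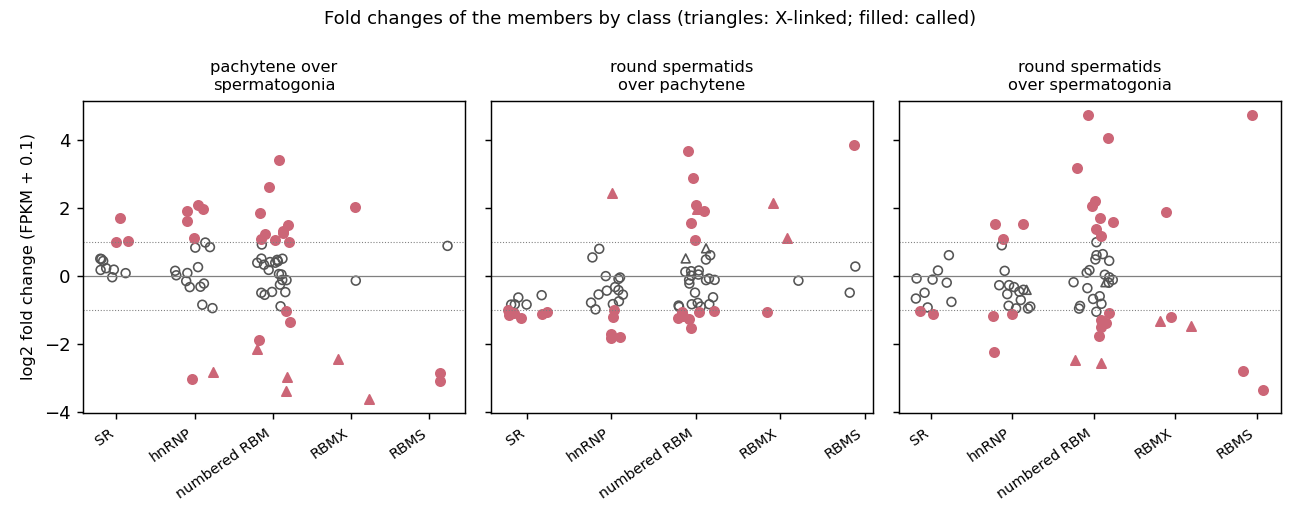
Log2 fold change of FPKM + 0.1 (vertical axis) of every tested protein-coding member by class, in each of the 3 stage comparisons; triangles are X-linked members, and filled points passed the limma test at an adjusted p under 0.05 and at least 2-fold. The 11 SR genes all lie below 0 in round spermatids over pachytene, between -1.26 and -0.57, and the 6 triangles all lie below 0 in pachytene over spermatogonia.

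By the same test 8 members were higher in spermatogonia than in both other stages (10.5%, against 24.3% of all features), 7 in pachytene cells (9.21%, against 7.2%) and 6 in round spermatids (7.89%, against 17.8%). The other 55 were highest in no single stage, as were 50.7% of all features. Those highest in spermatogonia were Hnrnpa1, Rbm3, Rbm38, Rbm41, Rbms2, Rbms3, Rbmx and Rbmx2. Of these, Rbm41 and Rbms3 passed the filter through spermatogonia alone, and 6 remain without them. Those highest in pachytene cells were Srsf11, Srsf12, Hnrnph3, Hnrnpm, Rbm5, Rbm6 and Rbm11. Those highest in round spermatids were Rbms1, Rbm4b, Rbm7, Rbm12b1, Rbm43 and Rbm47.

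The SR genes shared a profile: 10 of 11 had their greatest mean level in pachytene cells, the exception being Srsf9, and all 11 had lower means in round spermatids than in pachytene cells. Between those stages 6 (54.5%, where 13.4% of all features fell) passed the test, Srsf1, Srsf3, Srsf9, Srsf10, Srsf11 and Srsf12, and the class median was -1.001 on the log2 scale, against 0.13 over all features. Several sat near the 2-fold limit. With libraries scaled to equal medians 9 of the 11 fell, where 22.9% of all features did. No SR gene changed sign in this comparison under any of the 16 other settings tried. Relative to spermatogonia, Srsf4, Srsf11 and Srsf12 rose in pachytene cells (27.3%, where 36.6% of all features rose) and none fell (31% of all features did). The other 8 did not pass, and the rise of Srsf4, at 1.00, did not pass in 5 of those settings. The share of all features with their greatest mean in pachytene cells was not counted.

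Srsf5, the most abundant SR gene here, had 158, 165 and 159 FPKM in spermatogonia, 216, 214 and 223 FPKM in pachytene cells, and 139, 139 and 141 FPKM in round spermatids. Its pachytene libraries were the highest and no stages overlapped, but its log2 fold change in round spermatids over pachytene was -0.64 (SE 0.04, adjusted p = 9.74e-07), short of 2-fold. Srsf1, the founding SR protein, had 138, 135 and 123 FPKM in spermatogonia, 185, 187 and 189 FPKM in pachytene cells, and 96.9, 90.8 and 92.3 FPKM in round spermatids. Its round spermatid libraries were all below the others, with a log2 fold change over pachytene of -1.001 (SE 0.05, adjusted p = 2.56e-07), right at the 2-fold limit. Srsf2, which marks nuclear speckles, had 138, 149 and 133 FPKM in spermatogonia, 156, 163 and 153 FPKM in pachytene cells, and 84.2, 86.2 and 92.6 FPKM in round spermatids. The log2 fold change in round spermatids over pachytene was -0.84, also short of 2-fold.

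Srsf10, a splicing repressor when dephosphorylated, had 119, 127 and 104 FPKM in spermatogonia, 140.2, 131 and 137 FPKM in pachytene cells, and 54.9, 55.9 and 59.9 FPKM in round spermatids. The round spermatid libraries stood below both other stages, and the log2 fold changes were -1.26 (SE 0.07, adjusted p = 4.48e-07) over pachytene and -1.03 (SE 0.07, adjusted p = 7.56e-07) over spermatogonia. The second of these was -0.97 without spermatogonia replicate 2 and then missed the 2-fold limit. Srsf11 had 48.7, 49.8 and 46.4 FPKM in spermatogonia, 102, 98.2 and 97.1 FPKM in pachytene cells, and 45.1, 43.0 and 46.0 FPKM in round spermatids. It was highest in pachytene cells, at 1.04 (SE 0.05, adjusted p = 2.88e-08) over spermatogonia, and the round spermatid libraries fell by 1.15 on the log2 scale. Srsf12 was the only SR gene with means under 5 FPKM, at 0.663, 2.35 and 1.05 FPKM in the stages in order. The remaining SR genes, Srsf3, Srsf6, Srsf7 and Srsf9, had stage means from 30.4 to 128 FPKM. Their log2 fold changes in round spermatids over pachytene were -1.11 for Srsf3, -0.85 for Srsf6, -0.57 for Srsf7 and -1.08 for Srsf9.

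**Figure D2:**
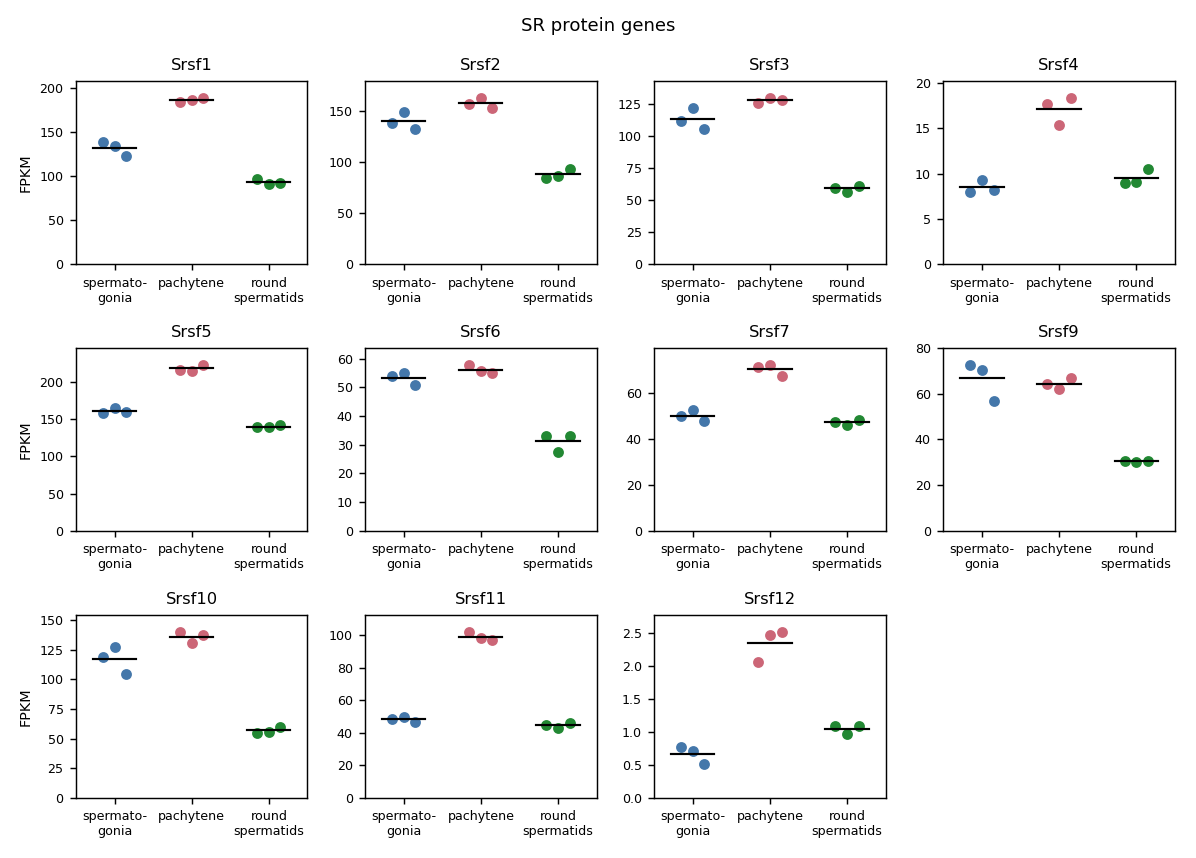
FPKM of the 11 SR genes in each library, by stage; points are libraries and lines are stage means, with a linear axis from 0 in every panel. The pachytene points lie above the round spermatid points in every panel, and Srsf10 has means of 56.9 FPKM in round spermatids and 136 FPKM in pachytene cells.

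Of the 20 hnRNP genes 5 rose and 2 fell in pachytene cells relative to spermatogonia, 25% and 10% where 36.6% of all features rose and 31% fell. In round spermatids relative to pachytene cells 1 rose and 5 fell, 5% and 25% where 27.3% of all features rose and 13.4% fell. Of the 3 most abundant, Hnrnpk and Hnrnph1 passed neither test and Hnrnpf passed the first. Hnrnpk, which binds C-rich RNA, had 346, 355 and 323 FPKM in spermatogonia, 369, 353 and 361 FPKM in pachytene cells, and 239.7, 244 and 256 FPKM in round spermatids. Hnrnph1, which binds runs of G, had 184, 211 and 181 FPKM in spermatogonia, 220.4, 199.7 and 216 FPKM in pachytene cells, and 156, 153 and 165 FPKM in round spermatids. Both overlapped between spermatogonia and pachytene cells and had lower values in every round spermatid library, at log2 fold changes over pachytene of -0.55 for Hnrnpk and -0.42 for Hnrnph1.

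Hnrnpf, a close relative of Hnrnph1, had 124, 120.2 and 102 FPKM in spermatogonia, 341, 363 and 347 FPKM in pachytene cells, and 319.7, 331 and 334 FPKM in round spermatids. It rose in pachytene cells, with a log2 fold change of 1.61 (SE 0.07, adjusted p = 2.81e-08), and at -0.09 the round spermatid level did not pass the test against pachytene cells. Of the 100-base windows of its transcript, 43.5% also occur in other annotated genes, among them Gm6430 and Gm7446, so its reads may be shared. Hnrnpul1 had 52.0, 51.9 and 44.0 FPKM in spermatogonia, 188, 189.8 and 196 FPKM in pachytene cells, and 136, 146 and 142 FPKM in round spermatids, and rose in pachytene cells by 1.96 (SE 0.07, adjusted p = 4.32e-09) on the log2 scale. Hnrnpll, known for its part in T cell splicing of Ptprc, had 26, 28.5 and 25.5 FPKM in spermatogonia, 117, 111 and 111 FPKM in pachytene cells, and 58.4, 55.5 and 56.6 FPKM in round spermatids. It rose by 2.08 (SE 0.05, adjusted p = 5.26e-10) in pachytene cells over spermatogonia, and the round spermatid libraries lay between the other stages, at -0.99 over pachytene. Its paralog Hnrnpl, which binds CA repeats, had 114, 121 and 111 FPKM in spermatogonia, 203, 217 and 202 FPKM in pachytene cells, and 64.9, 59.4 and 63.1 FPKM in round spermatids; its log2 fold change was 0.85 (SE 0.06, adjusted p = 3.98e-07) in pachytene over spermatogonia and -1.73 (SE 0.06, adjusted p = 1.10e-08) in round spermatids over pachytene. Hnrnpl levels in round spermatids were thus below those of spermatogonia in all libraries, while Hnrnpll levels were above them.

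Hnrnph3 and Hnrnpm were highest in pachytene cells. Hnrnph3 had 18.98, 22.4 and 19.7 FPKM in spermatogonia, 81.0, 72.7 and 78.2 FPKM in pachytene cells, and 38.7, 37.0 and 38.2 FPKM in round spermatids, a log2 fold change of 1.92 (SE 0.07, adjusted p = 5.12e-09) over spermatogonia and of -1.02 in round spermatids over pachytene. Hnrnpm, which binds GU-rich RNA, had 55.7, 59.8 and 54.0 FPKM in spermatogonia, 125, 118 and 123 FPKM in pachytene cells, and 34.1, 33.2 and 36.0 FPKM in round spermatids, with -1.82 (SE 0.05, adjusted p = 7.40e-09) in round spermatids over pachytene. For Hnrnpm, 27.9% of windows are shared with March2, so the values of either gene may hold reads of the other. Hnrnpa0 and Hnrnpa2b1 also fell in round spermatids. Hnrnpa0 averaged 26.9 ± 1.33 FPKM in round spermatids, against 93.6 ± 2.23 FPKM in pachytene cells, with a log2 fold change of -1.79, SE 0.07 and adjusted p = 3.51e-08. Hnrnpa2b1, a reader of sorting motifs in RNA, averaged 62.8 ± 3.22 FPKM in round spermatids, against 146 ± 7.44 FPKM in pachytene cells, with a log2 fold change of -1.22, SE 0.07 and adjusted p = 2.68e-07.

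Hnrnpa1, a strong promoter of exon skipping, moved the other way. It had 169, 192 and 166 FPKM in spermatogonia, 22.1, 19.9 and 21.3 FPKM in pachytene cells, and 35.8, 35.4 and 38.8 FPKM in round spermatids, so every spermatogonia library exceeded every later one at least by several fold. The log2 fold change was -3.05 (SE 0.07, adjusted p = 2.28e-10) in pachytene over spermatogonia and -2.25 (SE 0.07, adjusted p = 1.59e-09) in round spermatids over spermatogonia. Of its windows 42.2% also occur in other annotated genes, among them Gm10052 and Gm7729. The other hnRNP genes to pass a test were Hnrnph2, on the X chromosome, and Hnrnpdl and Hnrnpul2, which fell in round spermatids over spermatogonia with log2 fold changes of -1.19 and -1.12. Hnrnpa3, Hnrnpab, Hnrnpc, Hnrnpd, Hnrnpr and Hnrnpu passed none. Among them Hnrnpr, at 44.5, 87.7 and 49.5 FPKM in the stages in order, came nearest with a log2 fold change of 0.98 in pachytene over spermatogonia. Hnrnpu, a nuclear scaffold protein, was level between spermatogonia and pachytene cells at 0.02, and shares its locus in the table with a separate feature named HNRNPU.

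The 7 X-linked members all fell in pachytene cells, with log2 fold changes from -3.64 to -1.84 and a median of -2.85. Over all 795 X-linked features tested, 518 fell, 170 rose and the median was -2.32. In round spermatids 5 of the 7 rose relative to pachytene cells and none fell, with a median of 1.28, where all X-linked features had 497 that rose, 46 that fell and a median of 1.57. All 7 stayed below their spermatogonial means in round spermatids, and 4 passed that test. Of the 795 X-linked features, 406 (51.1%) were lower in round spermatids than in spermatogonia, 257 were higher and the median was -1.13. Without Rbm41, which passed the filter through spermatogonia alone, 6 members fell in pachytene cells and 3 were lower in round spermatids than in spermatogonia. No sign changed under any other setting that tested the gene.

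Rbmx encodes hnRNP G, which binds RNA and acts in splicing and genome stability. It had 9.72, 10.5 and 11.4 FPKM in spermatogonia, 2.11, 1.83 and 1.60 FPKM in pachytene cells, and 4.39, 3.94 and 4.01 FPKM in round spermatids. The 3 stages did not overlap, and the log2 fold changes were -2.46 (SE 0.11, adjusted p = 2.73e-08) in pachytene over spermatogonia and 1.12 (SE 0.11, adjusted p = 1.53e-05) in round spermatids over pachytene. Rbmx2, a spliceosome component, had 8.24, 7.67 and 6.95 FPKM in spermatogonia, 0.662, 0.423 and 0.498 FPKM in pachytene cells, and 2.77, 2.34 and 2.84 FPKM in round spermatids, with -3.64 (SE 0.16, adjusted p = 1.64e-08) in pachytene over spermatogonia. Its return in round spermatids reached 2.14 (SE 0.16, adjusted p = 1.67e-06) over pachytene, and left it at -1.49 relative to spermatogonia.

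Rbm3, a cold-inducible RNA-binding protein and the most abundant X-linked member, had 109.5, 113 and 99.7 FPKM in spermatogonia, 9.68, 11.1 and 9.64 FPKM in pachytene cells, and 18.6, 16.5 and 18.5 FPKM in round spermatids. Every pachytene library was far below every spermatogonia library, with a log2 fold change of -3.39 (SE 0.08, adjusted p = 2.60e-10), and round spermatids over pachytene gave 0.81, short of the 2-fold limit. Rbm10, a splicing regulator related to Rbm5, had 8.71, 7.71 and 7.50 FPKM in spermatogonia, 1.53, 1.64 and 1.96 FPKM in pachytene cells, and 6.78, 6.82 and 7.30 FPKM in round spermatids. It fell by 2.16 (SE 0.11, adjusted p = 4.14e-08) on the log2 scale in pachytene cells and rose again by 1.97 (SE 0.11, adjusted p = 2.19e-07) in round spermatids, which left round spermatids at -0.19 relative to spermatogonia. Hnrnph2, the X-linked paralog of Hnrnph1, followed the same course with 21.8, 22.6 and 21.4 FPKM in spermatogonia, 3.20, 2.57 and 3.14 FPKM in pachytene cells, and 15.9, 16.1 and 17.3 FPKM in round spermatids. Its log2 fold changes were -2.85 (SE 0.09, adjusted p = 1.53e-09) in pachytene over spermatogonia and 2.44 (SE 0.09, adjusted p = 1.98e-08) in round spermatids over pachytene, and no pair of stages overlapped. Rbm41 was low throughout, with 1.97, 2.197 and 2.498 FPKM in spermatogonia, 0.146, 0.419 and 0.0925 FPKM in pachytene cells, and 0.283, 0.244 and 0.441 FPKM in round spermatids, and its later stages overlapped each other.

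The autosomal relatives of Rbmx had other profiles. Rbmxl1, an Rbmx retrocopy on chromosome 8, had 12.2, 12.4 and 10.8 FPKM in spermatogonia, 10.4, 10.5 and 10.99 FPKM in pachytene cells, and 5.57, 4.47 and 5.09 FPKM in round spermatids. Spermatogonia and pachytene cells overlapped, at a log2 fold change of -0.14, and round spermatids were lower at -1.07 (SE 0.09, adjusted p = 4.80e-06) over pachytene. Rbmxl2 on chromosome 7 encodes hnRNP G-T, a germ cell protein needed for meiosis in mouse males. It had 31.9, 29.2 and 22.4 FPKM in spermatogonia, 114, 119 and 103 FPKM in pachytene cells, and 101, 109 and 94.5 FPKM in round spermatids, a log2 fold change of 2.02 (SE 0.12, adjusted p = 2.13e-07) in pachytene over spermatogonia, and -0.14 in round spermatids over pachytene with overlapping libraries. The longest coding transcripts of Rbmx and Rbmxl2 aligned over 257 bases at 74.7% identity, with no identical run longer than 13 bases. Those of Rbmx and Rbmxl1 aligned over 995 bases at 88.0% identity with a run of 67 bases, and 59.1% of Rbmxl1 windows also occur in Gm7324 or Gm7192, so the Rbmxl1 values are less certain.

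**Figure D3:**
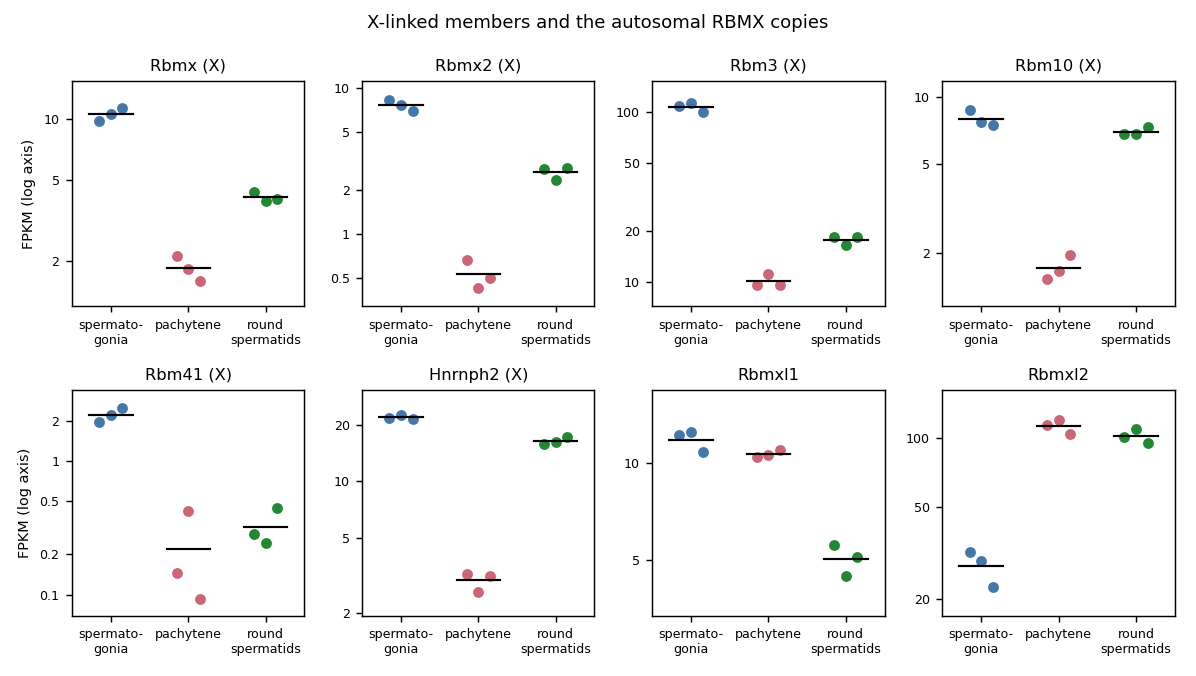
FPKM on a log axis in each library for the 6 X-linked protein-coding members and the autosomal Rbmxl1 and Rbmxl2; points are libraries and lines are stage means. The X-linked panels have their highest points in spermatogonia, while Rbmxl2 has means of 27.8, 112 and 101 FPKM in the stages in order.

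The promoters of Rbmx and Rbmxl2 are shown because these relatives have their greatest mean level in different stages. By the test Rbmxl2 was highest in no single stage. Each sequence is RefSeq's, on GRCm38.p6, and runs from 250 bases before to 50 bases after the annotated start of the gene, with CCAAT or ATTGG and TGACG or CGTCA in capitals. The Rbmxl2 window is chr7:107209195-107209494 (plus strand) and the Rbmx window is chrX:57392987-57393286 (minus strand).
Rbmxl2: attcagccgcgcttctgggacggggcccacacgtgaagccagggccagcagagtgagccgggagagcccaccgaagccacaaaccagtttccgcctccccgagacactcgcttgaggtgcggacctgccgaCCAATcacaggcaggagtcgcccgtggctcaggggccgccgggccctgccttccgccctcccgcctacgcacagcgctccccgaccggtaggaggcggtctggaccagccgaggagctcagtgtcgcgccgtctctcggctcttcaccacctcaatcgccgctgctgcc
Rbmx: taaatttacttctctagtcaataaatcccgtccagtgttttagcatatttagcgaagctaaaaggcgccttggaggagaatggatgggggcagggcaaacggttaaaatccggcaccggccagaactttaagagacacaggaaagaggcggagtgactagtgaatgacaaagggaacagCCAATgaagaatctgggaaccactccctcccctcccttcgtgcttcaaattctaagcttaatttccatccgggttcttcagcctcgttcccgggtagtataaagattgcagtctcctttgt
Both hold CCAAT and neither holds TGACG on either strand, and Rbmx also holds TATAAA. In windows of this length CCAAT was found, on either strand, in 35 of the 67 members with a promoter entry (52.2%), in 43.0% of tested protein-coding genes and in 41.1% of all genes. TGACG was found in 33 of the 67 members (49.3%), in 32.6% of tested protein-coding genes and in 23.0% of all genes. The full site TGACGTCA was in none of the 67, in 3.4% of tested protein-coding genes and in 2.03% of all genes. TATAAA was in 16.4% of members, 9.36% of tested protein-coding genes and 15.7% of all genes, and GTTGCC was in 19.4%, 15.6% and 14.1%. Median GC content was 63.3% in members, 61.3% in tested protein-coding genes and 53.3% in all genes, and was not matched in these shares.

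The 6 genes highest in round spermatids belong to several families. Rbms1, which binds single-stranded DNA and RNA, lies at chr2:60750193-60963192 (GRCm38) and had 8.67, 8.94 and 11.02 FPKM in spermatogonia, 16.1, 22.0 and 15.3 FPKM in pachytene cells, and 278, 243 and 244 FPKM in round spermatids. The round spermatid libraries stood far above all others, and the log2 fold change was 3.85 (SE 0.14, adjusted p = 2.59e-08) over pachytene and 4.73 (SE 0.14, adjusted p = 1.38e-09) over spermatogonia. Among all members only Hnrnpf had a greater mean level in that stage. Its relatives Rbms2 and Rbms3 went the opposite way, Rbms2 with 5.99, 6.69 and 7.24 FPKM in spermatogonia, 0.817, 0.778 and 0.868 FPKM in pachytene cells, and 0.505, 0.524 and 0.633 FPKM in round spermatids, and a log2 fold change of -2.87 (SE 0.13, adjusted p = 2.31e-08) in pachytene over spermatogonia. Rbms3 had 2.09, 1.88 and 3.36 FPKM in spermatogonia, 0.157, 0.147 and 0.284 FPKM in pachytene cells, and 0.346, 0.265 and 0.164 FPKM in round spermatids, with later stages that overlapped. Among markers of other testis cells, the Sertoli sum given above was also greatest in spermatogonia, although its member Rhox5 was lowest there. The 10 peritubular and interstitial genes, none at 0, summed to 302.3, 244.5 and 525.2 FPKM in the spermatogonia libraries. Their sums were 16.8 to 18.85 FPKM in pachytene cells and 42.15 to 43.36 FPKM in round spermatids. The Leydig sum was instead greatest in pachytene cells, at 93.99 to 102.7 FPKM. Most of it there came from Insl3, at 61.77 to 69.24 FPKM, against 3.303 to 3.615 FPKM in spermatogonia. Cyp11a1, Cyp17a1 and Hsd3b6 also had their greatest values in pachytene cells. Hsd17b3 and Nr5a1 went the other way, at 23.01 to 27.22 and 23.33 to 28.84 FPKM in spermatogonia. Hsd3b1, Lhcgr and Star overlapped between spermatogonia and pachytene cells. The macrophage sum was 11.47 and 9.953 FPKM in spermatogonia replicates 1 and 2, below the 36.69 to 39.91 FPKM of round spermatids. The part of other testis cells in the fall of Rbms2, Rbms3 and the other members highest in spermatogonia was not tested.

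Rbm43, little studied, had 1.92, 1.44 and 1.75 FPKM in spermatogonia, 2.44, 1.85 and 2.499 FPKM in pachytene cells, and 29.9, 27.5 and 32.3 FPKM in round spermatids. Spermatogonia and pachytene cells overlapped at low levels and round spermatids stood apart, with 3.67 (SE 0.14, adjusted p = 3.05e-08) on the log2 scale over pachytene. Rbm47, a cofactor of the RNA editing enzyme APOBEC1, climbed at both steps with 0.432, 0.966 and 0.740 FPKM in spermatogonia, 2.09, 3.38 and 2.86 FPKM in pachytene cells, and 21.7, 20.96 and 19.9 FPKM in round spermatids. Its log2 fold changes were 1.85 (SE 0.25, adjusted p = 7.59e-05) in pachytene over spermatogonia and 2.89 (SE 0.25, adjusted p = 5.45e-06) in round spermatids over pachytene. Rbm7, a subunit of the nuclear exosome targeting complex, had 32.1, 31.0 and 29.4 FPKM in spermatogonia, 23.0, 20.8 and 21.4 FPKM in pachytene cells, and 94.0, 86.6 and 96.9 FPKM in round spermatids. It was lowest in pachytene cells and highest in round spermatids, at 2.08 (SE 0.06, adjusted p = 7.18e-09) over pachytene. The 12 round spermatid markers, at 1496 to 1689 FPKM in pachytene libraries, differed between these stages in the same direction, and the part of such transcripts in the pachytene values was not tested.

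Rbm12b1 and Rbm12b2 are neighbours on chromosome 4 and nearly identical. Rbm12b1 had 7.47, 6.46 and 6.74 FPKM in spermatogonia, 8.07, 8.70 and 13.4 FPKM in pachytene cells, and 31.0, 28.9 and 27.0 FPKM in round spermatids. Rbm12b2 had 5.11, 5.15 and 4.81 FPKM in spermatogonia, 7.09, 6.40 and 6.88 FPKM in pachytene cells, and 2.06, 2.36 and 2.43 FPKM in round spermatids. They moved in opposite directions in round spermatids over pachytene, Rbm12b1 with 1.55 (SE 0.17, adjusted p = 2.77e-05) and Rbm12b2 with -1.53 (SE 0.09, adjusted p = 3.67e-07). Their transcripts match at 98.1% identity with an identical run of 1599 bases, and 55.7% of Rbm12b1 windows and 46.9% of Rbm12b2 windows occur in the other, so the split between them is uncertain.

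Rbm4b and Rbm4 are a second pair of neighbours, on opposite strands of chromosome 19, and encode related regulators of splicing and translation. Rbm4b, at chr19:4756497-4767065, had 14.2, 16.1 and 15.5 FPKM in spermatogonia, 36.2, 39.2 and 35.5 FPKM in pachytene cells, and 137, 136 and 146 FPKM in round spermatids. It rose at both steps without overlap, with 1.27 (SE 0.06, adjusted p = 4.28e-08) in pachytene over spermatogonia and 1.91 (SE 0.06, adjusted p = 1.11e-08) in round spermatids over pachytene. Rbm4, at chr19:4784293-4793901, had 18.5, 19.3 and 17.5 FPKM in spermatogonia, 11.4, 12.2 and 13.9 FPKM in pachytene cells, and 11.1, 10.96 and 12.2 FPKM in round spermatids, and passed no test, at -0.56 and -0.12 for the same steps. The coding transcripts align over 1074 bases at 87.0% identity with an identical run of 426 bases. Of Rbm4 windows 65.8% occur in other genes, Gm21992 and Rbm4b, against 19.4% of Rbm4b windows, and the table gives both genes and Rbm14 a common locus. Their promoters are shown for the same reason as the RBMX pair, Rbm4b from chr19:4756275-4756574 (plus strand) and Rbm4 from chr19:4793960-4794259 (minus strand).
Rbm4b: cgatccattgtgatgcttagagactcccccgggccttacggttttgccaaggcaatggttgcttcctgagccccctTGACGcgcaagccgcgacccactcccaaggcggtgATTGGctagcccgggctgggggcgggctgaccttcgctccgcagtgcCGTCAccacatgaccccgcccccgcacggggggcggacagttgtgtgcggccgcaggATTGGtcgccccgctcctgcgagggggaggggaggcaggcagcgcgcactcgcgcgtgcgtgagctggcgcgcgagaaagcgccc
Rbm4: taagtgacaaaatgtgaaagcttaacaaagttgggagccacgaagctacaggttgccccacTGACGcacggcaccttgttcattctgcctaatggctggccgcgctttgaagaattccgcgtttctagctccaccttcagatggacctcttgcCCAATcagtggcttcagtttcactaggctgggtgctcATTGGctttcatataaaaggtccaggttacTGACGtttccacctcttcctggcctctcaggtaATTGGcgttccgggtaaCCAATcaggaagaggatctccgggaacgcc
Both windows hold TGACG and CCAAT. The Rbm4 window also holds TATAAA and GTTGCC, which the Rbm4b window does not. A second annotated start of Rbm4 gives the window chr19:4793852-4794151, which holds TATAAA but not GTTGCC. The difference in GTTGCC thus depends on the start chosen.

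**Figure D4:**
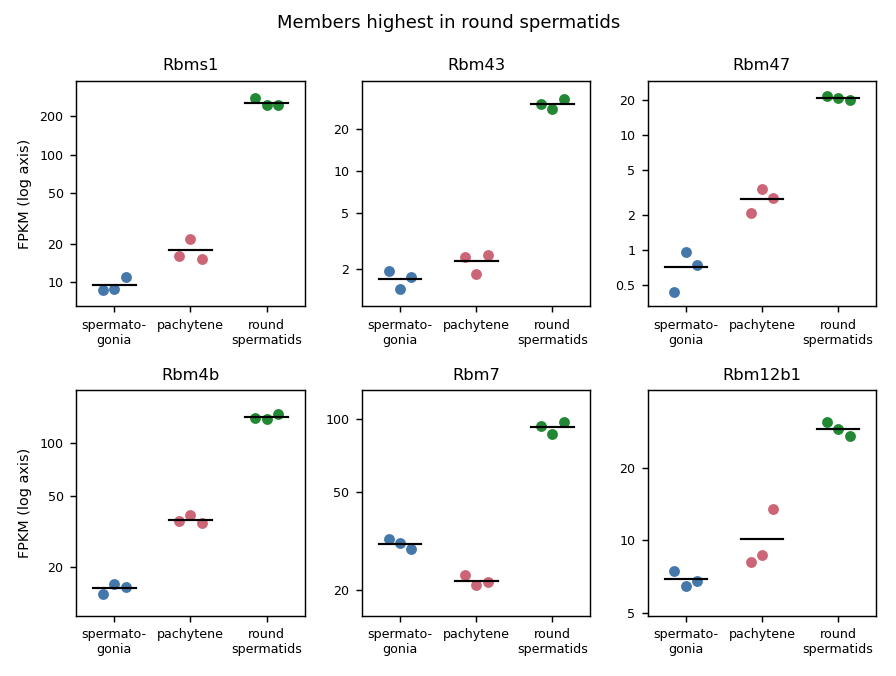
FPKM on a log axis in each library of the 6 members higher in round spermatids than in both other stages; points are libraries and lines are stage means. Rbms1 has means of 9.54, 17.8 and 255 FPKM in the stages in order, and Rbm7 is the one panel with its lowest points in pachytene cells.

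Several numbered RBM genes rose in pachytene cells relative to spermatogonia, with no stage between them sampled. Rbm11, a tissue-restricted splicing regulator at chr16:75592844-75602829, had 1.57, 1.56 and 1.69 FPKM in spermatogonia, 18.3, 18.4 and 17.6 FPKM in pachytene cells, and 7.44, 7.46 and 8.61 FPKM in round spermatids. No stages overlapped, and the log2 fold changes were 3.41 (SE 0.08, adjusted p = 2.09e-10) in pachytene over spermatogonia and -1.20 (SE 0.08, adjusted p = 7.96e-07) in round spermatids over pachytene. Rbm44, a protein of the intercellular bridges that join germ cells, had 16.4, 17.1 and 13.9 FPKM in spermatogonia, 99.8, 95.1 and 96.9 FPKM in pachytene cells, and 55.8, 46.4 and 53.8 FPKM in round spermatids, with 2.62 (SE 0.09, adjusted p = 3.81e-09) in pachytene over spermatogonia. Rbm46, which acts with MEIOC and YTHDC2 at the start of meiosis in mouse, had 24.5, 25.9 and 21.5 FPKM in spermatogonia, 52.6, 48.8 and 50.8 FPKM in pachytene cells, and 27.3, 25.3 and 27.96 FPKM in round spermatids. Its pachytene level passed the test at 1.08 (SE 0.08, adjusted p = 5.85e-07), and its round spermatid libraries overlapped those of spermatogonia.

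Rbm5 and Rbm6 are neighbouring splicing regulators on chromosome 9, and loss of RBM5 function blocks spermatid differentiation in mouse. Rbm5 had 39.7, 42.2 and 40.2 FPKM in spermatogonia, 86.7, 80.7 and 85.1 FPKM in pachytene cells, and 36.2, 32.6 and 37.2 FPKM in round spermatids, with 1.05 (SE 0.06, adjusted p = 1.32e-07) over spermatogonia and -1.25 (SE 0.06, adjusted p = 1.09e-07) in round spermatids over pachytene. Rbm6 had 25.5, 26.7 and 26.1 FPKM in spermatogonia, 56.6, 48.1 and 53.6 FPKM in pachytene cells, and 25.3, 24.6 and 26.03 FPKM in round spermatids; it rose by 1.01, a call lost in 4 of the 16 other settings, and fell by 1.05 in round spermatids. Both thus peaked in pachytene cells, unlike their X-linked relative Rbm10, which had its lowest level there. Rbm26 and Rbm27, linked to nuclear RNA decay, rose by 1.31 and 1.51 in pachytene cells, with stage means of 18.3, 45.4 and 41.5 FPKM and 10.6, 30.4 and 27.98 FPKM. Rbm14, a coactivator of transcription and splicing, rose by 1.24.

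Other numbered RBM genes fell in at least 1 comparison. Rbm39, a spliceosome-associated protein and the most abundant of the class, had 261, 295 and 257 FPKM in spermatogonia, 151, 140.0 and 144 FPKM in pachytene cells, and 105, 96.7 and 107 FPKM in round spermatids. Its stages did not overlap, and it fell in round spermatids with -1.40 (SE 0.07, adjusted p = 4.10e-08) over spermatogonia, while each single step was under 2-fold. Rbm38, a p53 target that binds and stabilizes Cdkn1a mRNA, had 25.7, 25.04 and 22.2 FPKM in spermatogonia, 6.37, 6.72 and 6.16 FPKM in pachytene cells, and 6.45, 7.31 and 7.14 FPKM in round spermatids, with -1.90 (SE 0.08, adjusted p = 1.16e-08) in pachytene over spermatogonia. Rbm22, a component of the active spliceosome, fell to 5.69 ± 0.745 FPKM in round spermatids, against 16.4 ± 1.61 FPKM in spermatogonia, with a log2 fold change of -1.51, SE 0.11 and adjusted p = 6.41e-07. Rbm17, also known as SPF45, fell to 20.96 ± 1.13 FPKM in round spermatids, against 51.3 ± 3.88 FPKM in pachytene cells, a log2 fold change of -1.29. Rbm12 fell by 1.37 on the log2 scale in pachytene cells and shares 32.1% of its windows with Gm28036 and Cpne1. Rbm18 fell by 1.03 in pachytene cells and rose by 1.06 in round spermatids, and Rbm34 and Rbm45 each fell in a single comparison, Rbm34 with -1.31 in round spermatids over spermatogonia and Rbm45 with -1.07 in round spermatids over pachytene.

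Beside Rbm4 and Rbm20, 9 tested numbered RBM genes passed none of the comparisons. Rbm25, an abundant splicing factor, had 54.0, 57.2 and 55.2 FPKM in spermatogonia, 75.6, 73.1 and 71.8 FPKM in pachytene cells, and 73.6, 78.3 and 74.2 FPKM in round spermatids, with log2 fold changes of 0.41 and 0.04 at the successive steps. Rbm15, which recruits the m6A methylation complex, was the flattest at 21.9, 20.1 and 20.1 FPKM, and its stages overlapped throughout. Rbm8a, the Y14 subunit of the exon junction complex, had means of 20.2, 18.5 and 10.3 FPKM and came close in round spermatids over spermatogonia at -0.97. The others were Rbm15b, Rbm19, Rbm28, Rbm33, Rbm42 and Rbm48, with stage means of 5.39 to 34.97 FPKM. For Rbm42, 92.1% of windows also occur in the overlapping gene Gm21982, so its value is uncertain.

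Rbm20 and Rbm24 stood apart because 1 library carried them. Rbm20 controls splicing of titin in heart muscle, and Rbm24 is a splicing regulator of heart and skeletal muscle. Rbm20 had 0.181, 0.193 and 7.44 FPKM in spermatogonia, 0.618, 0.622 and 0.595 FPKM in pachytene cells, and 0.254, 0.357 and 0.324 FPKM in round spermatids. Rbm24 had 0.288, 0.321 and 7.98 FPKM in spermatogonia, 0.0959, 0.0597 and 0.0826 FPKM in pachytene cells, and 0.284, 0.372 and 0.438 FPKM in round spermatids. In both genes spermatogonia replicate 3 was far above the other 8 libraries, which were all below 1 FPKM. A list of 17 heart muscle genes, assembled after this was seen, summed to 98.13, 102.3 and 4554 FPKM in the spermatogonia libraries, 13.93 to 15.92 FPKM in pachytene libraries and 61.91 to 63.29 FPKM in round spermatids. In 16 of the 17, all but Myl7, spermatogonia replicate 3 was the highest library. Of all 17987 tested features, 276 (1.53%) and 2 of the 77 members (Rbm20 and Rbm24) were at least 2 log2 units higher in that library than the mean of the other spermatogonia libraries. The log2 fold change of Rbm20 in pachytene over spermatogonia was -0.26 (SE 1.08, adjusted p = 0.824) with all libraries and 1.31 without spermatogonia replicate 3, so no direction is given for it. Without that library 74 members were tested, as Rbm41 and Rbms3, both called lower with all libraries, dropped out. In pachytene cells 20 members then rose, with Rbm20 in place of Srsf4, and 12 fell, among them Hnrnpab at -1.02. Of all features tested without that library, 38.9% rose and 26.7% fell. In round spermatids relative to spermatogonia 16 were higher, with Rbm28 added at 1.01, and 17 were lower, with Hnrnpa0 at -1.03 and Rbm8a at -1.01 added. The shares of all features there were 41.5% higher and 26.2% lower.

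**Figure D5:**
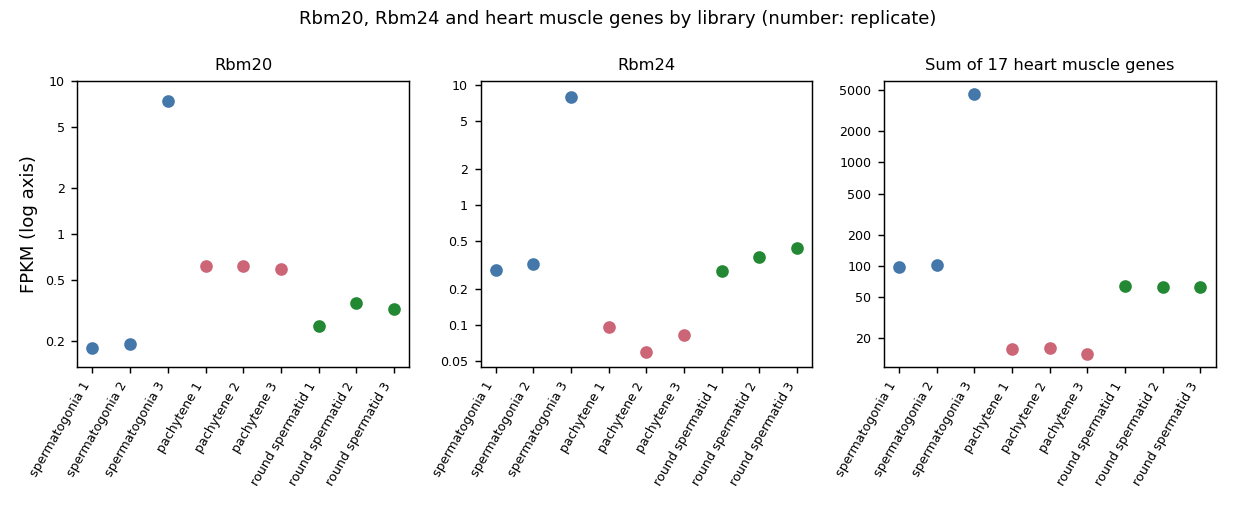
FPKM on a log axis of Rbm20, Rbm24 and the sum of 17 heart muscle genes in each of the 9 libraries. Spermatogonia replicate 3 is the highest point in every panel, at 7.44 FPKM for Rbm20, 7.98 FPKM for Rbm24 and 4554 FPKM for the sum.

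The antisense RNAs are listed in both deposited tables, with larger values in the lncRNA table, and no level is set across the tables. Rbm46os, on chromosome 3, had 1.21, 0.757 and 0.682 FPKM in spermatogonia, 34.98, 33.5 and 36.1 FPKM in pachytene cells, and 40.6, 39.1 and 34.8 FPKM in round spermatids in the mRNA table. It rose in pachytene cells by 5.19 (SE 0.17, adjusted p = 2.51e-09) on the log2 scale, more than Rbm46 itself at 1.08; this difference was not tested. In the lncRNA table it was listed at 54.0, 34.6 and 34.3 FPKM in spermatogonia, 988, 1034 and 1909 FPKM in pachytene cells and 1012, 1074 and 1915 FPKM in round spermatids, so the stages were ordered alike. Rbm3os, which lies opposite Rbm3, was low in the mRNA table, with 0.901, 1.04 and 0.941 FPKM in spermatogonia, 0.0522, 0.259 and 0.372 FPKM in pachytene cells, and 0.587, 0.784 and 0.504 FPKM in round spermatids, and fell in pachytene cells as Rbm3 did. Whether the counting used the strand is not given in the sources used here, so reads from the stretch where Rbm3os and Rbm3 overlap cannot be told apart. Rbm46os does not overlap Rbm46, but shares its locus in the table with Lrat on the minus strand, which had 0.352, 0.382 and 0.349 FPKM in spermatogonia, 3.35, 2.84 and 3.24 FPKM in pachytene cells, and 4.298, 4.003 and 3.974 FPKM in round spermatids; reads from any stretch that Rbm46os and Lrat share cannot be told apart either.

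Other genes of the splicing machinery were counted over lists drawn up by function. Over all features 36.6% rose and 31% fell in pachytene over spermatogonia, and 27.3% rose and 13.4% fell in round spermatids over pachytene. Of 10 tested genes listed for the phosphorylation and import of SR proteins, 3 rose and 1 fell in pachytene cells (30% and 10%). Their median log2 fold change was 0.57, against 0.26 over all features. Srpk1, the main cytoplasmic SR kinase, rose to 229.5 ± 0.578 FPKM in pachytene cells, against 37.8 ± 2.42 FPKM in spermatogonia (log2 fold change 2.603). Srpk2, its relative, rose to 36.2 ± 1.23 FPKM in pachytene cells, against 13.4 ± 0.651 FPKM in spermatogonia (log2 fold change 1.43). In round spermatids 1 of the list rose and 2 fell relative to pachytene cells (10% and 20%), with a median of -0.56. Tnpo3, the importer of SR proteins, fell to 15.9 ± 0.748 FPKM in round spermatids, against 40.5 ± 1.29 FPKM in pachytene cells (log2 fold change -1.35). Between the same stages Srpk1 had a log2 fold change of 0.01.

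Among 19 SR-related genes 5 rose and 1 fell in pachytene cells (26.3% and 5.26%), with a median of 0.24, and none rose and 5 (26.3%) fell in round spermatids relative to pachytene cells, with a median of -0.93. Srek1 fell to 6.16 ± 0.384 FPKM in round spermatids, against 19.6 ± 1.70 FPKM in pachytene cells (log2 fold change -1.65), and Pnn, a protein of splicing complexes at exon junctions, fell to 8.63 ± 0.355 FPKM in round spermatids, against 21.4 ± 1.44 FPKM in pachytene cells (log2 fold change -1.30). Of 16 genes for U2AF, branch point recognition and SF3, 4 rose and 1 fell in pachytene cells (25% and 6.25%), with a median of 0.58. The one that fell was Zrsr2, an X-linked gene for 3' splice site recognition in minor introns, at 2.67 ± 0.961 FPKM in pachytene cells, against 22.9 ± 2.09 FPKM in spermatogonia (log2 fold change -3.10). In round spermatids 4 of the 16 (25%) fell relative to pachytene cells and none rose. U2af2, the reader of the polypyrimidine tract, fell to 25.9 ± 0.917 FPKM in round spermatids, against 64.9 ± 1.05 FPKM in pachytene cells (log2 fold change -1.32). Of 30 Sm, LSm and snRNP protein genes 7 rose and 1 fell in pachytene cells (23.3% and 3.33%), with a median of 0.585, led by Lsm2 of the U6 ring at 167 ± 7.27 FPKM in pachytene cells, against 21.9 ± 2.62 FPKM in spermatogonia (log2 fold change 2.93). None of the 30 rose and 5 (16.7%) fell in round spermatids relative to pachytene cells, led by Lsm3 at 28.9 ± 0.931 FPKM in round spermatids, against 78.6 ± 2.33 FPKM in pachytene cells (log2 fold change -1.44). Medians of the U2AF and Sm lists in that comparison were -0.75 and -0.73, against 0.13 over all features.

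Among 48 other splicing and translation regulators 17 rose and 10 fell in pachytene cells (35.4% and 20.8%), and 10 rose and 9 fell in round spermatids relative to pachytene cells (20.8% and 18.8%), with medians of 0.25 and -0.19. Ybx2, a germ cell protein that stores mRNA, rose to 1045 ± 62.6 FPKM in pachytene cells, against 5.12 ± 1.12 FPKM in spermatogonia (log2 fold change 7.67). Celf3 rose to 16.3 ± 0.933 FPKM in round spermatids, against 1.15 ± 0.110 FPKM in pachytene cells (log2 fold change 3.72), and Pcbp1 fell to 15.9 ± 0.283 FPKM in round spermatids, against 131 ± 0.747 FPKM in pachytene cells (log2 fold change -3.03). Of 17 germ cell RNA-binding genes 5 rose and 7 fell in pachytene cells (29.4% and 41.2%), and 2 rose and 2 fell in round spermatids (11.8% each), with medians of 0.35 and -0.07. Boll, a relative of DAZ proteins needed for spermatid development, rose to 429 ± 11.2 FPKM in pachytene cells, against 24.6 ± 3.08 FPKM in spermatogonia (log2 fold change 4.12). Tdrd1, a protein of germ granules, fell to 26.2 ± 0.902 FPKM in round spermatids, against 152 ± 4.69 FPKM in pachytene cells (log2 fold change -2.53), and Msi2, a translational regulator, rose to 45.8 ± 3.00 FPKM in round spermatids, against 11 ± 0.850 FPKM in pachytene cells (log2 fold change 2.05).

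The authors' deposited tables of changed features list 50 members for pachytene against spermatogonia, 29 higher and 21 lower. They list 56 for round spermatids against pachytene, 16 higher and 40 lower. These lists set no 2-fold limit. At 2-fold or more they hold 20 higher and 14 lower members in the first comparison, and 12 higher and 19 lower in the second. The share of all features that they list was not counted, so these numbers have no background beside them. Of the members that passed the limma test, the authors' deposited tables hold 32 of 33 and 30 of 31, all with the same sign, and lack Rbm3os in each. Both rest on the same libraries, so the shared sign adds no support. In 49 of the 77 members no 100-base window occurs in a transcript of another annotated gene, and in 13 more than 20% do. The largest overlaps are given with the genes above; beyond them were Hnrnpa3, Hnrnpk, Rbm10 and Srsf3, at 20.7% to 27.5%.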

How the data were processed

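The authors deposited FPKM values per feature and library. The submitters' processing notes name Cuffdiff 2.2.1, TopHat2 2.0.12, Trim Galore and FastQC, and the mm10 genome. Their options, the annotation release and the use of strand in counting were not given in the sources used here. Tables of changed features that the authors deposited hold a log2 fold change and a q-value per feature, as the authors gave them.

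Members were taken by symbol from the mRNA table. The members, gene lists and tests were chosen with earlier results of these data known. Values were taken as log2(FPKM + 0.1), and features under 0.5 FPKM in more than 6 of 9 libraries, as well as 31 with a blank value, were left out. Fold changes of low features are understated by the pseudocount. One limma 3.58.1 model (R 4.3.3) with a mean trend used all 9 libraries, with Benjamini-Hochberg adjustment over 17987 features, and was tested on simulated data.

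Named with values per library were, for each comparison, up to 8 members with the largest rise and 8 with the largest fall among those of at least 5 FPKM in the higher stage, every X-linked or RBMX member, the 3 most abundant of each class, and up to 5 against their class. From the pathway lists some of the genes with the largest changes are named. Other members named were chosen after their values were seen. Gene types and coordinates are those of GENCODE M21 on GRCm38. Read sharing was measured as the share of 100-base windows of the longest transcript found in another gene's transcripts, and identity by local alignment (Biopython 1.88).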

Additional observations from a re-analysis of the deposited data

How the results depend on the processing

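Each count was recomputed with other pseudocounts, filters, a scaling to equal library medians, no fold threshold, the compared stages alone, a replicate block and each library left out. With libraries scaled to equal medians, 31 members instead of 19 fell in round spermatids over pachytene (22.9% of all features), 26 instead of 17 fell in round spermatids over spermatogonia (34.4%), and 13 instead of 7 were highest in pachytene cells (11.1%). With no fold threshold, 40 members rose and 24 fell in pachytene over spermatogonia (47.9% and 39.7% of all features), 43 fell in round spermatids over pachytene (33.4%), 42 fell in round spermatids over spermatogonia (40.8%), 20 were highest in spermatogonia (32.8%) and 27 in pachytene cells (20.7%). With 1 library left out, Rbm20 ranged from -1.06 to 1.31 in pachytene over spermatogonia and reversed to 1.31 without spermatogonia replicate 3. No called member changed sign in any of the 16 settings that tested it, but leaving out 1 library ended calls near 2-fold: in pachytene over spermatogonia for Srsf4 (spermatogonia 1 or 3, pachytene 1 or 3), Rbm6 (spermatogonia 1, pachytene 1 or 3) and Rbm18 (pachytene 2), and in round spermatids over pachytene for Srsf1 and Rbm22 (among others, round spermatid 2 or 3), Hnrnph3 and Rbm3os (pachytene 1), Rbm18 (pachytene 2) and Rbmxl1 (round spermatid 2). The labels do not say whether the replicate numbers pair the samples. Same-numbered libraries correlated at -0.106 to 0.039 in their deviations, and the best match was the same number in 6 of 18 cases. These values show no pairing, but they cannot establish that there was none. With the replicate block, 20 members rose and 13 fell in pachytene over spermatogonia, 12 and 19 in round spermatids over pachytene, and 15 and 17 in round spermatids over spermatogonia, the counts without it. Depth is an estimate, so levels under 1 FPKM, as for Rbm24, Rbm20 and Rbm3os, rest on an unknown number of fragments.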
